A study of Mus musculus with 24 samples.

Results

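The data described here compare the prefrontal cortex of mice that went through maternal separation (MS) with that of normally reared mice (Control), neither of which had the EC-12 supplement. The comparison takes 12 of the 24 RNA-seq libraries of the series, 6 from MS and 6 from Control, and every gene of the deposited count table. The other 12 libraries, 6 MS_EC12 and 6 Control_EC12, came from mice given EC-12, a heat-killed preparation of the gut bacterium Enterococcus faecalis, and are used here only where the effect of rearing is set beside its effect among supplemented mice. All 24 libraries are from adult male mice labelled wild type. Neither a strain nor a schedule of separation is given. Whether 2 libraries ever share an animal is not stated either, and the p-values below reflect variation from library to library, which can include technical variation.

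Maternal separation is a rodent model of early-life stress in which pups are taken from the dam for part of each day, and the adult animals are studied for lasting changes in stress response and social behaviour. The prefrontal cortex is a frontal area that takes part in such behaviour. The gene groups that recur below respond quickly to the state of the animal. Immediate early genes are transcribed within minutes when neurons are active, through CREB and serum response factor bound at their promoters, and many encode transcription factors of the Fos, Egr and Nr4a families. The circadian clock is a feedback loop in which the activators CLOCK, NPAS2 and BMAL1 bind E-boxes and drive the Per, Cry, Bhlhe and Nr1d genes, whose proteins repress the activators or their genes.

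The tissue label was checked against marker genes. Slc17a7, the vesicular glutamate transporter of cortical projection neurons, lay between 801 and 1130 TPM in MS and between 959 and 1060 TPM in Control, and Tbr1, a deep-layer cortical factor, between 50.1 and 84.5 TPM in MS and between 58.0 and 76.8 TPM in Control. Markers of striatum were present in every library as well: Drd1, the D1 dopamine receptor, lay between 34.9 and 50.3 TPM in MS and between 34.0 and 45.5 TPM in Control. Markers of hypothalamus were mixed. Hcrt, a peptide of the lateral hypothalamus, had 0 counts in the 6 MS libraries together and 9 in the 6 Control libraries, and Pmch had 37 and 31. The oxytocin gene Oxt had 312 counts in MS and 53 in Control, and the vasopressin gene Avp 216 and 44. Both were highest in MS replicate 1, at 31.0 and 21.8 TPM. In bulk tissue, fewer cells of a type and less RNA per cell cannot be told apart.

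Depth was alike in the 2 groups, with total counts of 27772142 to 33710435 in MS and 27229269 to 36336886 in Control. MS replicate 3 stood apart from the other 11 libraries. The GC slope, the change in log2 expression per 10 percentage points of a gene's GC content relative to its mean over all 24 libraries, was 0.266 in MS replicate 3, against −0.202 to −0.152 in the other MS libraries and −0.144 to −0.0851 in Control. That library also lay at the far end of the first principal component, which held 18.3% of the variance of the 12 libraries. Among the remaining 11 libraries the slope was lower in every MS library than in every Control library. An exact 2-sided permutation test gave p = 0.00433 there (5 against 6 libraries), and with MS replicate 3 included the same test gave p = 1. MS replicate 3 was left out for its own slope, so the first p-value follows a choice made on the value tested. Values are from all libraries unless stated otherwise.

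Few genes differed between MS and Control. Of 18380 genes tested with edgeR's quasi-likelihood test, 6 passed an adjusted p of 0.05, which is 0.0326% of the genes, with 2 higher in MS (0.0109%) and 4 lower (0.0218%). The genes that fell were Bhlhe40, Foxo6, Banp and Pdgfb, and those that rose were 4930445K14Rik and Lrch4. An unadjusted p under 0.05 was reached by 662 genes (3.6%), 273 of them higher (1.49%) and 389 lower (2.12%). In 132 genes (0.718%) the 6 MS libraries did not overlap the 6 Control libraries, 43 of them higher in MS (0.234%) and 89 lower (0.484%). Most genes lay close to no difference: the log2 fold changes had a median of −0.00574, 81.6% of them were within 0.2 of 0, and 71 genes lay beyond 1.

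Bhlhe40 encodes a basic helix-loop-helix repressor that binds E-boxes, represses the clock activators and is induced by neuronal activity. It lies on chromosome 6 (GRCm38.p6 chr6:108660629-108666925). Its lowest, median and highest levels were 74.5, 78.8 and 95.6 CPM (read counts scaled to a common library size) in MS and 125, 136 and 153 CPM in Control. The groups did not overlap, and the highest MS library lay well under the lowest Control library. The log2 fold change was −0.76 ± 0.108 (SE, n = 6 each; adjusted p = 0.0043), and Bhlhe40 passed whichever of the 12 libraries was left out, with log2 fold changes between −0.81 and −0.73.

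Foxo6, a forkhead transcription factor of brain neurons that has been tied to memory consolidation in mice, lies on chromosome 4 (chr4:120267078-120287261). It stood at 7.29, 8.82 and 10.3 CPM (lowest, median, highest) in MS and at 12.8, 14.7 and 16.7 CPM in Control. Again no MS library reached the Control range. Its log2 fold change was −0.75 ± 0.128 (SE, n = 6 each; adjusted p = 0.0251). It no longer passed without any 1 of MS replicates 4, 5 and 6 or Control replicates 3, 5 and 6, where the adjusted p lay between 0.0658 and 0.115.

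Foxo1, Foxo3 and Foxo4, the widely expressed forkhead factors that insulin signalling keeps out of the nucleus, had log2 fold changes of 0.08, −0.09 and −0.08, each with an adjusted p of 1. Over the 15 measured Foxo factors and target genes the median was −0.0902, 4 of the 15 were positive, Foxo6 alone passed, and 5 had a lower level at an unadjusted p under 0.05 (2.12% of all genes tested did). Irs2, the insulin receptor substrate that Foxo factors induce in liver, had a log2 fold change of −0.33 ± 0.136 (adjusted p = 1), and Gadd45a, a stress-induced growth arrest gene, −0.42 ± 0.128 (adjusted p = 0.712).

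Banp, a nuclear protein that binds a CpG-containing promoter motif when it is unmethylated, lies on chromosome 8 (chr8:121947972-122029260). It stood at 16.7, 19.2 and 22.7 CPM (lowest, median, highest) in MS and at 25.2, 27.5 and 30.9 CPM in Control, again without overlap. Banp had a log2 fold change of −0.52 ± 0.0905 (SE, n = 6 each; adjusted p = 0.0251). It did not pass without any 1 of MS replicates 1, 3, 4 and 5 or Control replicates 3, 5 and 6 (adjusted p from 0.0525 to 0.122), nor with limma on TPM (adjusted p = 0.576).

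Pdgfb encodes the B chain of platelet-derived growth factor, which endothelial cells release to hold pericytes on capillaries and which neurons also make. It lies on chromosome 15 (chr15:79995865-80024614) and stood at 16.1, 18 and 22.2 CPM (lowest, median, highest) in MS and at 24.4, 29.2 and 29.4 CPM in Control. The ranges did not overlap. The log2 fold change was −0.58 ± 0.108 (SE, n = 6 each; adjusted p = 0.0471), and the call was lost without any 1 of MS replicates 2, 4, 5 and 6 or Control replicates 3, 4, 5 and 6 (adjusted p from 0.0918 to 0.2). It was also lost with RLE scaling (adjusted p = 0.0596), without a filter on low counts (0.0872) and with limma on TPM (0.156). The 7 platelet-derived growth factors and receptors measured had a median of −0.0138 with 3 positive, and no other member reached an unadjusted p under 0.05.

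4930445K14Rik, a long non-coding RNA on chromosome 2 (chr2:164874857-164883451), stood at 6.30, 7.45 and 8.41 CPM (lowest, median, highest) in MS and at 3.08, 4.52 and 5.11 CPM in Control. Every MS library was above every Control library. The log2 fold change was 0.77 ± 0.113 (SE, n = 6 each; adjusted p = 0.0043), and the gene passed whichever library was left out, though not with limma on TPM (0.65, adjusted p = 0.0515). Its span overlaps Pcif1, a cap methyltransferase gene, and the counting rule is not given in the sources used here, so reads of Pcif1 may have been counted with it.

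Lrch4, a leucine-rich repeat protein that takes part in Toll-like receptor signalling, lies on chromosome 5 (chr5:137629123-137641099) and varied more between libraries than the other genes that passed. In MS it stood at 4.58, 6.69, 3.74, 5.03, 7.87 and 0.993 CPM in replicates 1 to 6, on counts of 29 to 212. In Control it ranged from 0.599 to 1.67 CPM with a median of 1.09, on counts of 16 to 60. MS replicate 6 thus lay inside the Control range and the other 5 MS libraries above it. On the log2 scale the difference was 2.14 ± 0.376 (SE, n = 6 each; adjusted p = 0.0251). The call was lost without any 1 of MS replicates 2, 4 and 5 or Control replicates 1, 3, 4, 5 and 6 (adjusted p from 0.0551 to 0.125), and with limma on TPM (log2 fold change 1.61, adjusted p = 0.16).

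**Figure D1:**
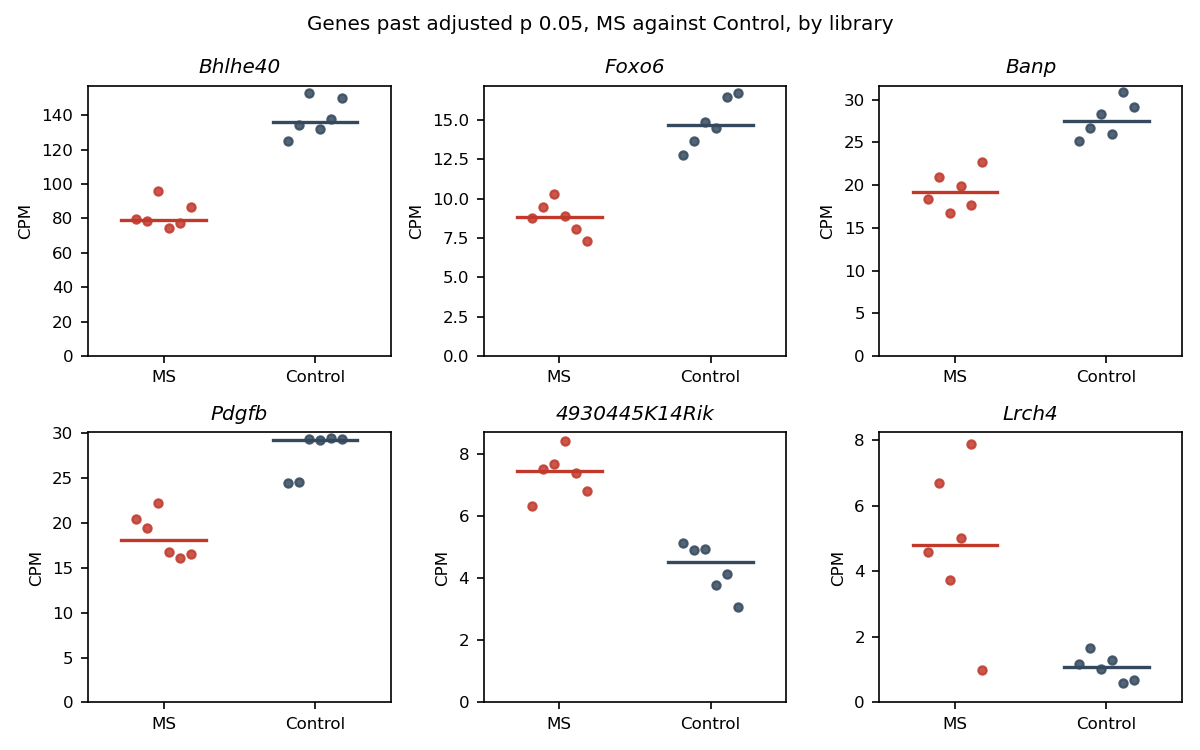
CPM of the 6 genes that passed, 1 point per library, with MS on the left and Control on the right of each panel and a bar at the median. In 5 panels the groups do not overlap; for Lrch4 1 MS library, at 0.993 CPM, lies among the Control libraries.

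The genes of next smallest p that had a lower level in MS did not pass. Klf10, a Kruppel-like repressor induced by TGF-beta, ranged from 17.5 to 32.0 CPM in MS and from 34.9 to 43.0 CPM in Control (log2 fold change −0.59 ± 0.117, adjusted p = 0.0844). Rara, the retinoic acid receptor alpha, had −0.53 ± 0.112 and Cbfa2t3, a corepressor of the ETO family, −0.53 ± 0.113, both with an adjusted p of 0.0969. Ccnd2, cyclin D2, ranged from 64.1 to 76.1 CPM in MS and from 85.1 to 108 CPM in Control (−0.40 ± 0.0883, adjusted p = 0.138). In each of these 4 genes the ranges were apart. Rara overlaps a predicted gene, Gm46294, so its counts are less certain.

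The same ranking held Narf, which encodes a binding partner of prelamin A (log2 fold change −0.28 ± 0.0591, adjusted p = 0.0969), and Map2k3, the kinase that activates p38 (−0.52 ± 0.118, adjusted p = 0.168). Both had ranges that were apart.

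Of the genes with a higher level in MS that did not pass, Nat8f3, an N-acetyltransferase of the endoplasmic reticulum family described below, had a log2 fold change of 0.53 ± 0.11 (adjusted p = 0.0969). Creb5, a leucine zipper factor of the CREB and ATF superfamily, ranged from 3.83 to 5.28 CPM in MS and from 1.46 to 3.18 CPM in Control (0.79 ± 0.165, adjusted p = 0.0969). The 15 Creb and Creb-like factors had a median of −0.0143, and no other member reached an unadjusted p under 0.05. Rasgef1b, an exchange factor for Rap2, ranged from 56.9 to 91.1 CPM in MS and from 52.9 to 58.6 CPM in Control (0.45 ± 0.096, adjusted p = 0.0969), with 5 of 6 MS libraries above the Control range.

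Lower down the same ranking stood Magef1, a partner of a ubiquitin ligase (log2 fold change 0.37 ± 0.0882, adjusted p = 0.217). Ppp1r10, which targets protein phosphatase 1 to the nucleus, stood there as well (0.32 ± 0.0817, adjusted p = 0.364). Snhg1, a host gene of small nucleolar RNAs, had 0.43 ± 0.113 (adjusted p = 0.409). The ranges of these 3 genes were apart. Mzf1, a zinc finger factor (0.37), Kdm4d, a histone demethylase (0.80), Usp43, a deubiquitinase (0.43), and Xrcc3, a recombination repair gene (0.82), had adjusted p-values from 0.376 to 0.54. Xrcc3 overlaps Klc1, so its counts are less certain.

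The immediate early transcription factors had mostly lower levels in MS. Of 23 measured, 21 had a negative log2 fold change; the median was −0.334, against −0.00574 over all genes tested. No member passed, 10 had a lower level at an unadjusted p under 0.05, as 2.12% of all genes tested did, and none a higher one, and 3 had ranges wholly below those of Control, where 0.484% of all genes tested did. Their mean log2 CPM was 4.27 to 4.75 in MS and 4.59 to 5.06 in Control, with 4 of 6 MS libraries below the Control range and Control replicate 1 as the library of Control nearest to MS.

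Within the Nr4a family of nuclear receptors, which need no ligand to act, members differed in size. Nr4a3 ranged from 24.6 to 39.1 CPM in MS, with a median of 33.5, and from 39.7 to 61.2 CPM in Control, with a median of 53.8. No MS library reached the Control range (log2 fold change −0.66 ± 0.139, adjusted p = 0.0969). Nr4a1 had −0.28 ± 0.167 and Nr4a2 −0.08 ± 0.0892, both with an adjusted p of 1 and with overlapping ranges.

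The Egr zinc finger factors varied among themselves as well. Egr4 stood at 17.2, 25.9 and 29.5 CPM (lowest, median, highest) in MS and at 30.5, 39.9 and 45.7 CPM in Control, without overlap (log2 fold change −0.65 ± 0.153, adjusted p = 0.211). Egr1, the most widely used marker of neuronal activity in this family, ranged from 219 to 359 CPM in MS and from 343 to 453 CPM in Control (−0.46 ± 0.128, adjusted p = 0.504). Egr2 had −0.69 ± 0.206 (adjusted p = 0.688). Egr3 went against the rest, at 0.07 ± 0.13 (adjusted p = 1), with a median of 176 CPM in MS and 174 CPM in Control.

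Of the AP-1 factors, which bind DNA as Fos and Jun dimers, Fos ranged from 21.8 to 44.4 CPM in MS and from 36.1 to 49.1 CPM in Control (log2 fold change −0.46 ± 0.151, adjusted p = 0.796). Junb had −0.43 ± 0.144 (adjusted p = 0.817), Fosb −0.28 ± 0.171 and Jun −0.11 ± 0.111, the last 2 with an adjusted p of 1. Npas4, which neurons induce through calcium entry, overlapped between the groups, at 15.5 to 36.4 CPM in MS and 21.9 to 58.1 CPM in Control (−0.36 ± 0.236, adjusted p = 1). Arc, an effector that acts at synapses, was among the most variable, at 52.5 to 218 CPM in MS and 129 to 220 CPM in Control (−0.49 ± 0.303, adjusted p = 1).

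The activity-induced effectors, the enzymes and synaptic proteins made in the same response, were less uniform than the transcription factors. Of 24 measured, 15 were negative, the median was −0.117 and none passed. At an unadjusted p under 0.05 6 had a lower and 1 a higher level, as 2.12% and 1.49% of all genes tested did. The median rested on MS replicate 3: without it, it was −0.0456. Plk3, a polo-like kinase, ranged from 7.84 to 12.1 CPM in MS and from 13.1 to 16 CPM in Control without overlap (log2 fold change −0.53 ± 0.122, adjusted p = 0.168), and it overlaps Tctex1d4. Sik1, a salt-inducible kinase that restrains CREB coactivators, had −0.42 ± 0.133 (adjusted p = 0.734) and Ier5 −0.35 ± 0.115 (adjusted p = 0.764). Nptx2, a pentraxin that gathers glutamate receptors at synapses onto interneurons, was the member with the higher level, at 43.4 to 60.2 CPM in MS and 38.4 to 47.6 CPM in Control (0.24 ± 0.113, adjusted p = 1).

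The feedback inhibitors of the ERK pathway, which the pathway induces against itself, had a median of −0.11 over 15 dual-specificity phosphatases, Sprouty and Spred proteins. None passed and 12 were negative. Dusp6, the ERK phosphatase of the cytoplasm, had −0.25 ± 0.08 (adjusted p = 0.764) and Dusp5, its nuclear counterpart, −0.55 ± 0.206 (adjusted p = 1).

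Promoter sequences of several of these genes are shown because their members stood together in sign and because CREB and the clock activators bind known motifs there. Each is the 250 bases before the annotated start in RefSeq (GRCm38.p6), 5′ to 3′ on the strand of the gene, in lower case with motif matches in capitals. The matches are TGACG, the core of the cAMP response element that CREB binds, or its reverse complement CGTCA, and CACGTG, the E-box, which reads the same on both strands. The 4 immediate early genes come first, at chr4:48045055-48045304 on the plus strand, chr6:85513590-85513839 on the minus strand, chr15:101266596-101266845 on the plus strand and chr2:57124004-57124253 on the minus strand.
Nr4a3: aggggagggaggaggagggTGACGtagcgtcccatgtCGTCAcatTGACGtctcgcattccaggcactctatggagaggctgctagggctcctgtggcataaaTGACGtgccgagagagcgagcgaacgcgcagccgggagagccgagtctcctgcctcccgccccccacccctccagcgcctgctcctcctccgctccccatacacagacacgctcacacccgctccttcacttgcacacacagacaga
Egr4: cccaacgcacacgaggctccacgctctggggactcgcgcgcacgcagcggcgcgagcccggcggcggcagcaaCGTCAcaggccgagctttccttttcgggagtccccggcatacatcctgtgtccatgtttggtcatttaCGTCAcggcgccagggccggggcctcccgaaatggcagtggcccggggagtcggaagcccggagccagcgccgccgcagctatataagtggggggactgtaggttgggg
Nr4a1: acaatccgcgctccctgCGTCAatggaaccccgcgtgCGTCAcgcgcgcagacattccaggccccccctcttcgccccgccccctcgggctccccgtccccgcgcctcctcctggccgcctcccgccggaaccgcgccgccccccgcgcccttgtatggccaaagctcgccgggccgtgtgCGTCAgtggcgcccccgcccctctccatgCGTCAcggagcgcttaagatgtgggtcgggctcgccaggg
Nr4a2: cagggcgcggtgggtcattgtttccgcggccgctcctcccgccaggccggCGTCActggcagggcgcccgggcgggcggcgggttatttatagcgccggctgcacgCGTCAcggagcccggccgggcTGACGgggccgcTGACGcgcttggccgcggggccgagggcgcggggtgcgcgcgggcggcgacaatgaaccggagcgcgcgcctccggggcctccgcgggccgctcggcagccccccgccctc

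Nr4a3, Nr4a1 and Nr4a2 each held 4 such cores in this window and Egr4 held 2, so the number of matches did not follow the size of the difference in MS: Nr4a2 has as many as Nr4a3. Of the 18 immediate early transcription factors with an entry in the promoter table, 14 (77.8%) held at least 1 core. The share was 24.7% in the promoters of genes tested and 17.8% in all promoters in the table. The full cAMP response element, TGACGTCA, was in 0 of these 18 (0.0%), against 2.43% of the promoters of genes tested. The serum response element was in 1 of them (5.56%), against 1.17%. The core contains a CpG, so its share also varies with base composition, and a match is a description of the letters, not a site shown to be bound.

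The repressors of the clock also had mostly lower levels in MS. Of 10 measured, 8 were negative, with a median of −0.26. Bhlhe40 passed, 7 had a lower level at an unadjusted p under 0.05 (2.12% of all genes tested did), and 4 (Bhlhe40, Per1, Nr1d1 and Bhlhe41) had ranges wholly below Control, where 0.484% of all genes tested did. The mean log2 CPM of the 10 genes was 5.64 to 5.79 in MS and 5.91 to 6.10 in Control, so that all 6 MS libraries lay under the Control range. Bhlhe40 and Per1 are also activity-induced, and Per1 counts here in both groups.

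Per1, a period protein that enters the nucleus with the cryptochromes, stood at 71.0, 82.3 and 96.2 CPM (lowest, median, highest) in MS and at 113, 122 and 127 CPM in Control. For Per1 the log2 fold change was −0.55 ± 0.112 (adjusted p = 0.0944). Nr1d1 (REV-ERB alpha), the haem-binding receptor that represses the gene of BMAL1, stood at 67.5, 77.2 and 90.9 CPM in MS and at 98.9, 105 and 118 CPM in Control (−0.47 ± 0.101, adjusted p = 0.0973). It overlaps Thra, which runs on the other strand, so its counts are less certain.

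Bhlhe41, the paralog of Bhlhe40, ranged from 32.2 to 36.5 CPM in MS and from 39.5 to 42.3 CPM in Control, a smaller difference than that of Bhlhe40 (log2 fold change −0.22 ± 0.0892, adjusted p = 1). Per2 ranged from 41.4 to 53.1 CPM in MS and from 48.7 to 68.1 CPM in Control (−0.40 ± 0.139, adjusted p = 0.909). Ciart, a repressor that binds the clock activators, had −0.29 ± 0.127 and Cry2 −0.17 ± 0.0662, both with an adjusted p of 1. Per3, at 0.04 ± 0.0916, Cry1, at 0.01 ± 0.086, and Nr1d2, at −0.13 ± 0.16, did not reach an unadjusted p of 0.05.

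The activators and the output genes of the clock did not share this shift. Over 14 measured genes the median was −0.0254, none passed, and none reached an unadjusted p under 0.05. Arntl, which encodes BMAL1, had a log2 fold change of −0.15 ± 0.0874, Npas2 0.15 ± 0.099 and Dbp, an output gene driven through E-boxes, −0.14 ± 0.151, each with an adjusted p of 1. The difference between the 2 clock lists was not tested.

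The promoters of 2 clock repressors are shown for their E-boxes, with Per1 at chr11:69098699-69098948 on the plus strand and Ciart at chr3:95882229-95882478 on the minus strand.
Per1: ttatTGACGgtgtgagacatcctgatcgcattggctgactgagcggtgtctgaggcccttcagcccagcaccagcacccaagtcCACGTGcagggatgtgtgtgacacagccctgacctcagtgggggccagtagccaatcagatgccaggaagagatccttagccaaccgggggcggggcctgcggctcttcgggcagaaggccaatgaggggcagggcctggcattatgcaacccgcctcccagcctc
Ciart: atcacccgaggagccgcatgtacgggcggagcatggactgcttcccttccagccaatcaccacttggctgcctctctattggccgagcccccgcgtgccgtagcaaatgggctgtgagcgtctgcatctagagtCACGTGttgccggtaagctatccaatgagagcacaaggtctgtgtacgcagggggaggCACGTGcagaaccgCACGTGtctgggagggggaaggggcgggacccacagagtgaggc

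Per1 held an E-box and a cAMP response element core, and Ciart held E-boxes at 116, 58 and 44 bases before its start. Of the 8 clock repressors with an entry in the promoter table, 4 (50.0%) held an E-box (Per1, Cry1, Bhlhe41 and Ciart), against 7.88% of the promoters of genes tested and 6.04% of all promoters. Per1 held 1 E-box and Ciart 3, while the log2 fold change was the larger in Per1.

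**Figure D2:**
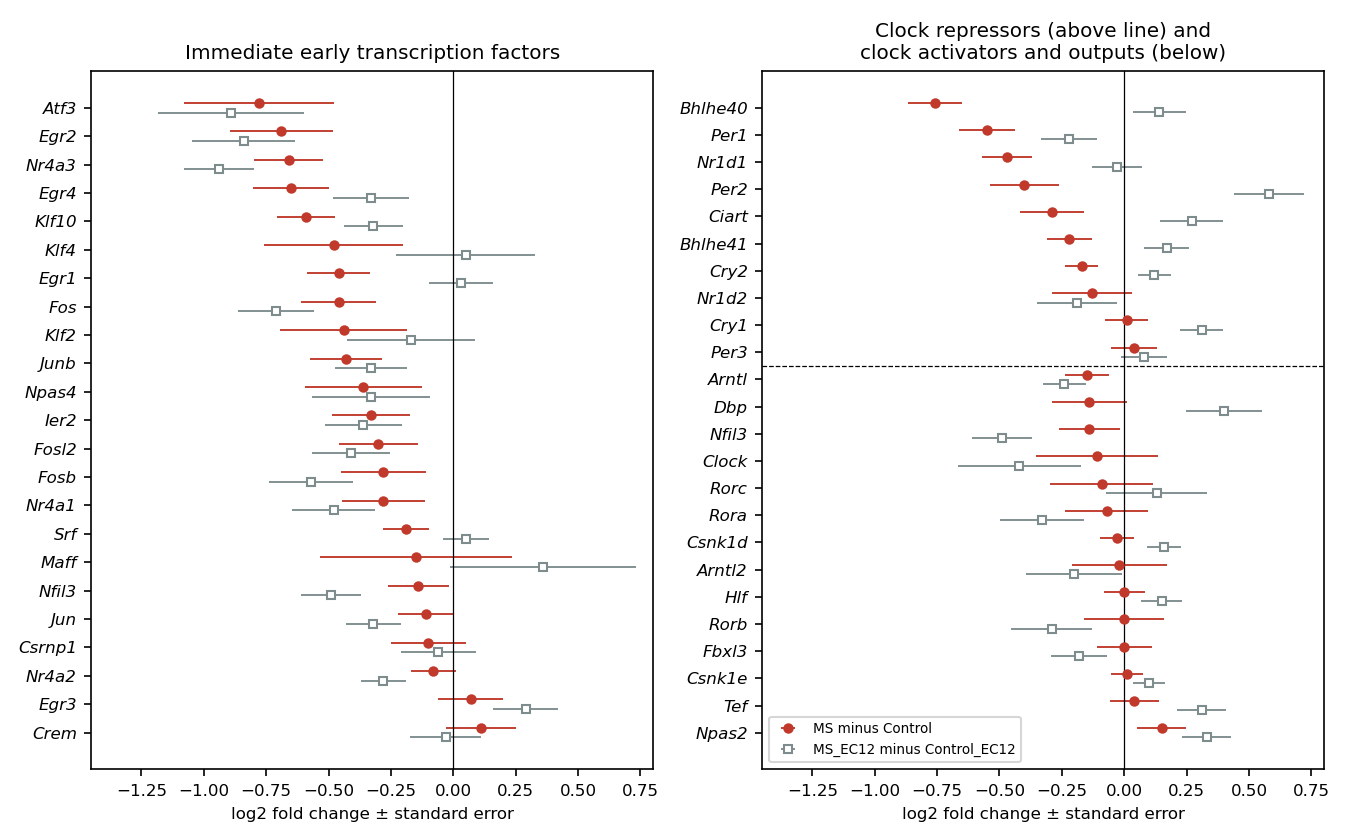
Log2 fold change of each immediate early transcription factor (left) and of each clock repressor, activator and output gene (right), with MS minus Control as filled circles, MS_EC12 minus Control_EC12 as open squares and bars of 1 standard error. In MS against Control 21 of the 23 immediate early factors and 8 of the 10 clock repressors lie left of 0.

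The same contrast of rearing among supplemented mice, MS_EC12 against Control_EC12, shares no library with MS against Control. There 48 genes passed (0.261%), with 0.0598% of all genes tested passing as lower. The immediate early transcription factors again lay low, with a median of −0.326, against −0.0236 over all genes tested. Of the 23, 5 were positive there and 17 negative in both contrasts. The sign was the same in both contrasts for 18 of the 23, as for 61.1% of all genes tested. Egr4, at −0.33, Klf10, at −0.32, and Egr1, at 0.03, did not pass there. Nr4a3 fell there, by 0.94 on the log2 scale (SE 0.14, adjusted p = 0.00162), and so did Fos, by 0.71 (SE 0.151, adjusted p = 0.042). For neither gene did the difference between the contrasts pass (interaction adjusted p = 0.83 for both). Of all 24 libraries 17 had a GC slope below 0, and apart from MS replicate 3 the rest were all from supplemented mice. Neither MS_EC12 against Control_EC12 nor the interaction was run with the slope as a covariate or in the libraries of slope below 0. The part of the slope in both was therefore not tested.

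The clock repressors, in turn, had a median of 0.127 in MS_EC12 against Control_EC12, with 7 of 10 positive and none passing. Bhlhe40 stood at 75.2, 112 and 130 CPM (lowest, median, highest) in MS_EC12 and at 82.5, 94.4 and 119 CPM in Control_EC12, with overlapping ranges (log2 fold change 0.14 ± 0.107, adjusted p = 0.459). The interaction of rearing and supplement passed for Bhlhe40, at 0.89 ± 0.152 (adjusted p = 0.0379). Per2, with −0.40 in MS against Control and 0.58 in MS_EC12 against Control_EC12, did not pass (interaction 0.98 ± 0.197, adjusted p = 0.152).

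Banp was the other gene with an interaction, and these 2 were 0.0109% of the genes tested. It stood at 18.3, 22.1 and 27.4 CPM (lowest, median, highest) in MS_EC12 and at 15.9, 18.1 and 19.6 CPM in Control_EC12, so that the Control_EC12 libraries lay under all Control libraries. The log2 fold change of rearing among supplemented mice was 0.32 ± 0.0907 (adjusted p = 0.152), and the interaction 0.84 ± 0.128 (adjusted p = 0.0152). For the other 4 genes that passed in MS against Control the interaction did not, with adjusted p-values from 0.176 to 0.735.

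The N-acetyltransferase 8 genes were positive in 8 of 9 cases, with a median of 0.192 that was 0.127 without MS replicate 3. Nat8 enzymes acetylate substrates in the endoplasmic reticulum and are best known from kidney and liver, and all but Nat8l lie in a cluster of close copies on chromosome 6 (chr6:85706707-85915914 of GRCm38.p6). None passed, 4 had a higher level at an unadjusted p under 0.05 (1.49% of all genes tested did), and the mean log2 CPM was 1.96 to 2.27 in MS and 1.74 to 1.93 in Control, so that all 6 MS libraries lay above the Control range. Since the copies are nearly identical, reads may have been split between them, and the values of single members are uncertain.

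Nat8f3 stood at 4.20, 5.45 and 6.98 CPM (lowest, median, highest) in MS and at 3.11, 3.85 and 4.16 CPM in Control, without overlap. Nat8f6 ranged from 0.891 to 1.54 CPM in MS and from 0.300 to 0.885 CPM in Control, also without overlap (log2 fold change 0.73 ± 0.235, adjusted p = 0.764). Of all genes tested 0.234% lay wholly above the Control range. Nat8f5 had 0.53 ± 0.195 (adjusted p = 1) and Nat8f7, which overlaps Alms1, 0.49 ± 0.141 (adjusted p = 0.547). The more abundant Nat8f1 and Nat8f4 had 0.06 ± 0.116 and 0.07 ± 0.0994, and Nat8f2, at 0.137 to 0.374 CPM in MS and 0.140 to 0.413 CPM in Control, had −0.24 ± 0.355, each with an adjusted p of 1. Nat8 itself had 0.19 ± 0.162 (adjusted p = 1). Nat8l, the relative outside the cluster, on chromosome 5, makes N-acetylaspartate in neurons and was by far the most abundant, at 359 to 522 CPM in MS and 381 to 417 CPM in Control (0.01 ± 0.112, adjusted p = 1).

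**Figure D3:**
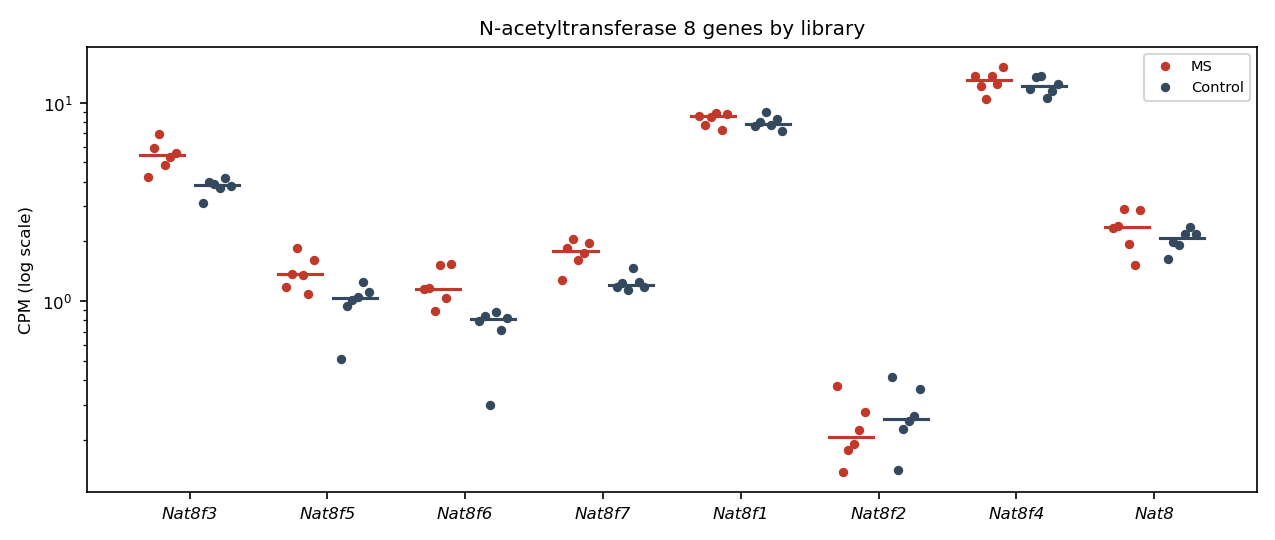
CPM of 8 N-acetyltransferase 8 genes on a log scale, 1 point per library with a bar at the median, MS left of Control for each gene. The ranges are apart for Nat8f3 and Nat8f6 and overlap for the other 6 genes. Of all genes tested 0.234% lay wholly above Control.

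**Figure D4:**
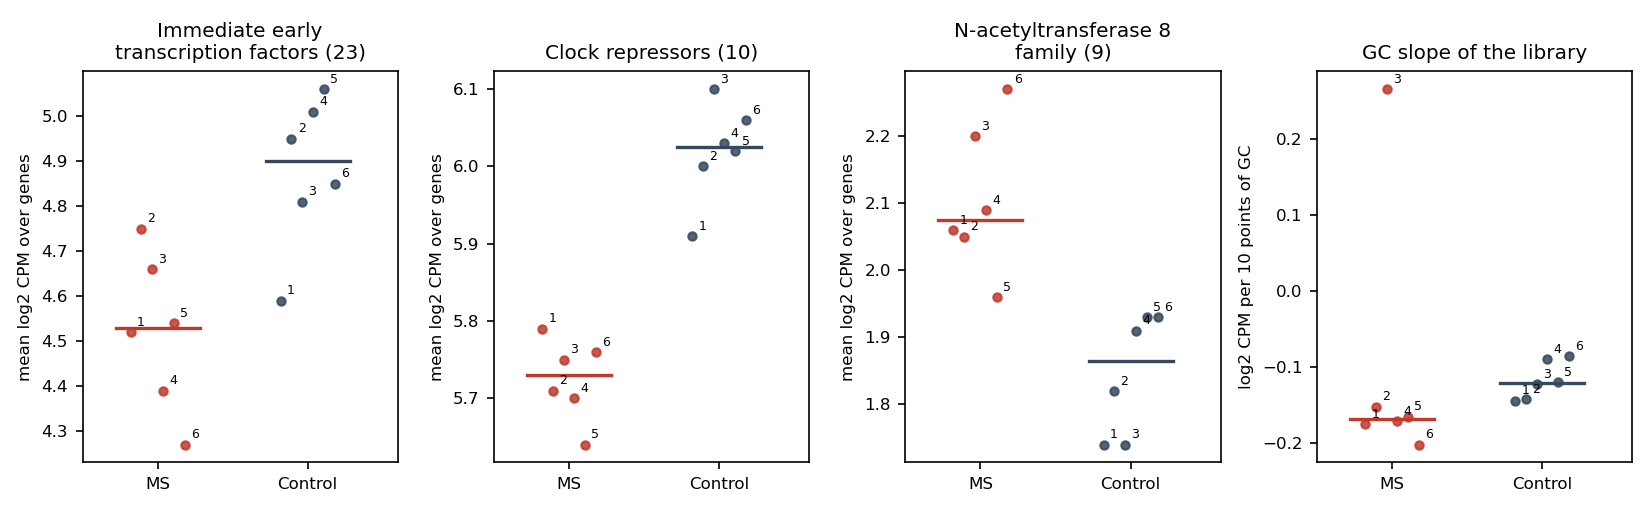
Mean log2 CPM over the immediate early transcription factors, the clock repressors and the N-acetyltransferase 8 genes, and the GC slope, for each library, with replicate numbers beside the points, bars at the median and MS left of Control. MS replicate 3 stands apart in GC slope, at 0.266, and lies among the other MS libraries in the 3 gene groups.

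Genes of protein synthesis and respiration had small positive shifts that ran through nearly all members. Of 83 cytosolic ribosomal protein genes 79 were positive, with a median of 0.0955; none passed, and 3 were wholly above the Control range, where 0.234% of all genes tested were. Of 78 mitochondrial ribosomal protein genes 70 were positive (median 0.0697), and of 36 nuclear NADH dehydrogenase subunits 35 were (median 0.0826). The ATP synthase subunits had a median of 0.102 with 16 of 17 positive, and the cytochrome bc1 subunits 0.103 with 8 of 8 positive. By library the groups overlapped in each of these families, and MS replicate 3 was the highest MS library in each. In mean log2 CPM 3 MS libraries lay above the Control range for the mitochondrial ribosomal genes and 4 for each of the others. The cytosolic ribosomal genes stood at 7.01 to 7.19 in MS and 6.92 to 7.07 in Control. The 13 genes encoded in the mitochondrial genome had a median of −0.039 with 3 positive, and of 0.000242 without MS replicate 3.

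Uqcrb, a bc1 subunit, ranged from 58.4 to 72.0 CPM in MS and from 47.5 to 60.4 CPM in Control (log2 fold change 0.25 ± 0.104, adjusted p = 1), and it was the single respiratory gene of these families at an unadjusted p under 0.05. The shifts were smaller without MS replicate 3, where the median was 0.0718 for the cytosolic ribosomal proteins, 0.0524 for the NADH dehydrogenase subunits, 0.061 for the ATP synthase subunits and 0.0605 for the bc1 subunits. Processed pseudogenes of ribosomal protein genes may have taken or given reads.

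Markers of vessels and meninges had lower medians in MS, with no member passing. The 20 endothelial genes had a median of −0.119 with 3 positive, the 14 mural genes −0.125 with 3 positive, and the 24 genes of meningeal and perivascular fibroblasts −0.159 with 2 positive. Flt1, a VEGF receptor, ranged from 36.9 to 50.0 CPM in MS and from 43.7 to 72.2 CPM in Control (log2 fold change −0.36 ± 0.142, adjusted p = 1), and Erg, an endothelial ETS factor, had −0.35 ± 0.141 (adjusted p = 1). The mean log2 CPM of the fibroblast genes was 3.69 to 3.93 in MS and 3.80 to 4.05 in Control, with 4 MS libraries below the Control range. The endothelial genes stood at 3.63 to 3.95 in MS and 3.66 to 4.27 in Control, with 1 MS library below. The mural genes stood at 2.75 to 2.97 in MS and 2.64 to 3.21 in Control, with 0 below. The medians of these lists have the sign of the difference in Pdgfb, which endothelial cells express. The part of these markers in the fall of Pdgfb was not tested.

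Collagens (median −0.102 over 44), laminins and integrins (−0.0843 over 29), Wnt and Frizzled genes (−0.123 over 24) and Sox factors (−0.116 over 16) had negative medians as well, and none of their members passed. Itga6, an integrin of vessel walls, had a log2 fold change of −0.34 ± 0.131 (adjusted p = 1). The 374 measured zinc finger genes named Zfp had a median of −0.0651 with 113 positive, and their median in the libraries of GC slope below 0 was 0.00602.

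Markers of some neighbouring brain regions stood higher in some MS libraries, and those of the olfactory bulb did not: over 14 genes of that region the median was −0.117 with 4 positive (−0.184 without MS replicate 3), and the mean log2 CPM was 2.64 to 4.66 in MS and 2.81 to 4.80 in Control. Over 13 measured hypothalamic and septal genes the median was 0.298 with 12 positive, and the mean log2 CPM was 1.24 to 3.17 in MS and 1.26 to 2.14 in Control. Oxt, the oxytocin gene, was at 6.94 CPM (241 counts) in MS replicate 1 and 1.61 CPM (51 counts) in MS replicate 4, with 0 to 0.377 CPM in the other MS libraries and 0 to 0.952 CPM in Control. Without MS replicates 1 and 4 the median of the list was −0.0082. Ttr, the transthyretin gene of choroid plexus, was at 54.8 CPM in MS replicate 3, at 0 to 1.16 CPM in the other 5 MS libraries and at 0.111 to 0.857 CPM in Control.

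The 20 striatal genes had a median of 0.126 with 18 positive and none passing, and the median without MS replicates 1 and 4 was 0.0609. Without these 2 libraries 4930445K14Rik and Bhlhe40 still passed, at 0.77 (adjusted p = 0.0378) and −0.71 (adjusted p = 0.0431), as did Nat8f3, at 0.66 (adjusted p = 0.0378), and Rasgef1b, at 0.53 (adjusted p = 0.0431). Foxo6, Banp, Pdgfb and Lrch4 had log2 fold changes of −0.75, −0.50, −0.58 and 2.14 there, with adjusted p-values from 0.115 to 0.175. The part of the regional markers in the results was not otherwise tested.

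The neutrophil genes S100a9 and Ngp had the smallest p-values of the blood list. S100a9, a subunit of calprotectin, ranged from 0.205 to 0.822 CPM in MS and from 0.563 to 1.98 CPM in Control (log2 fold change −1.28 ± 0.399, adjusted p = 0.734). Ngp, a neutrophil granule protein, ranged from 0.148 to 0.432 CPM in MS and from 0.338 to 0.912 CPM in Control (−1.47 ± 0.464, adjusted p = 0.746). Over 10 measured genes of that list the median was −0.112 with 1 positive, and 5 of 6 MS libraries lay below the Control range in mean log2 CPM.

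The main cell classes of the cortex had medians near 0. The cortical interneuron list stood at 0.0118 over 23 genes, the projection neuron layers at −0.0142 over 25, astrocytes at −0.0115 over 20, oligodendrocytes and myelin at −0.00988 over 20 and microglia at 0.0265 over 21, and none of their members passed. Neurod2, a helix-loop-helix factor of excitatory neurons on the projection neuron list, ranged from 36.8 to 51.4 CPM in MS and from 54.0 to 61.6 CPM in Control without overlap (log2 fold change −0.32 ± 0.0911, adjusted p = 0.54). Osr1, a zinc finger factor on the same list, was low throughout, at 1.30 to 1.64 CPM in MS and 1.5 to 2.98 CPM in Control (−0.58 ± 0.159, adjusted p = 0.473). The 11 oligodendrocyte precursor genes had a median of 0.025, and Olig2, the factor of the oligodendrocyte lineage, was the single one at an unadjusted p under 0.05 (0.31 ± 0.119, adjusted p = 1).

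Receptors and synaptic genes did not differ as groups. The medians were −0.0357 for 18 AMPA, NMDA and kainate receptor subunits (0.005 without MS replicate 3), 0.0291 for 16 GABA receptor subunits, −0.0232 for 29 postsynaptic scaffold and adhesion genes and 0.00505 for 31 genes of synaptic vesicles and release, and no member of these 4 lists reached an unadjusted p under 0.05. The 15 measured corticosteroid receptor and CRH genes (median −0.0192) and the 16 neurotrophin signalling genes (0.0412) held no such member either. Of 12 serotonin receptors (median 0.0776) only Htr1a, the 1A receptor, reached an unadjusted p under 0.05, at 18.3 to 24.2 CPM in MS and 16.2 to 20.7 CPM in Control (log2 fold change 0.24 ± 0.1, adjusted p = 1).

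Stress and immune genes likewise stayed near the median of all genes. The 22 glucocorticoid-induced genes had a median of −0.0283 with none passing. At an unadjusted p under 0.05 3 of them had a lower and 1 a higher level, as 2.12% and 1.49% of all genes tested did. In 1 the range was wholly below Control, as in 0.484% of all genes tested. Plin4, a lipid droplet coat gene that glucocorticoids induce, ranged from 2.33 to 6.24 CPM in MS and from 2.34 to 4.51 CPM in Control (log2 fold change 0.45 ± 0.217, adjusted p = 1). It overlaps Hdgfl2. Interferon-stimulated genes (−0.0654 over 32, and −0.0159 without MS replicate 3), complement genes (0.00473 over 18), antigen presentation genes (0.00948 over 19) and bacterial sensing and cytokine genes (−0.0362 over 27) held no gene that passed. Irf9, which carries the interferon signal into the nucleus, had −0.32 ± 0.115 (adjusted p = 0.942).

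**Figure D5:**
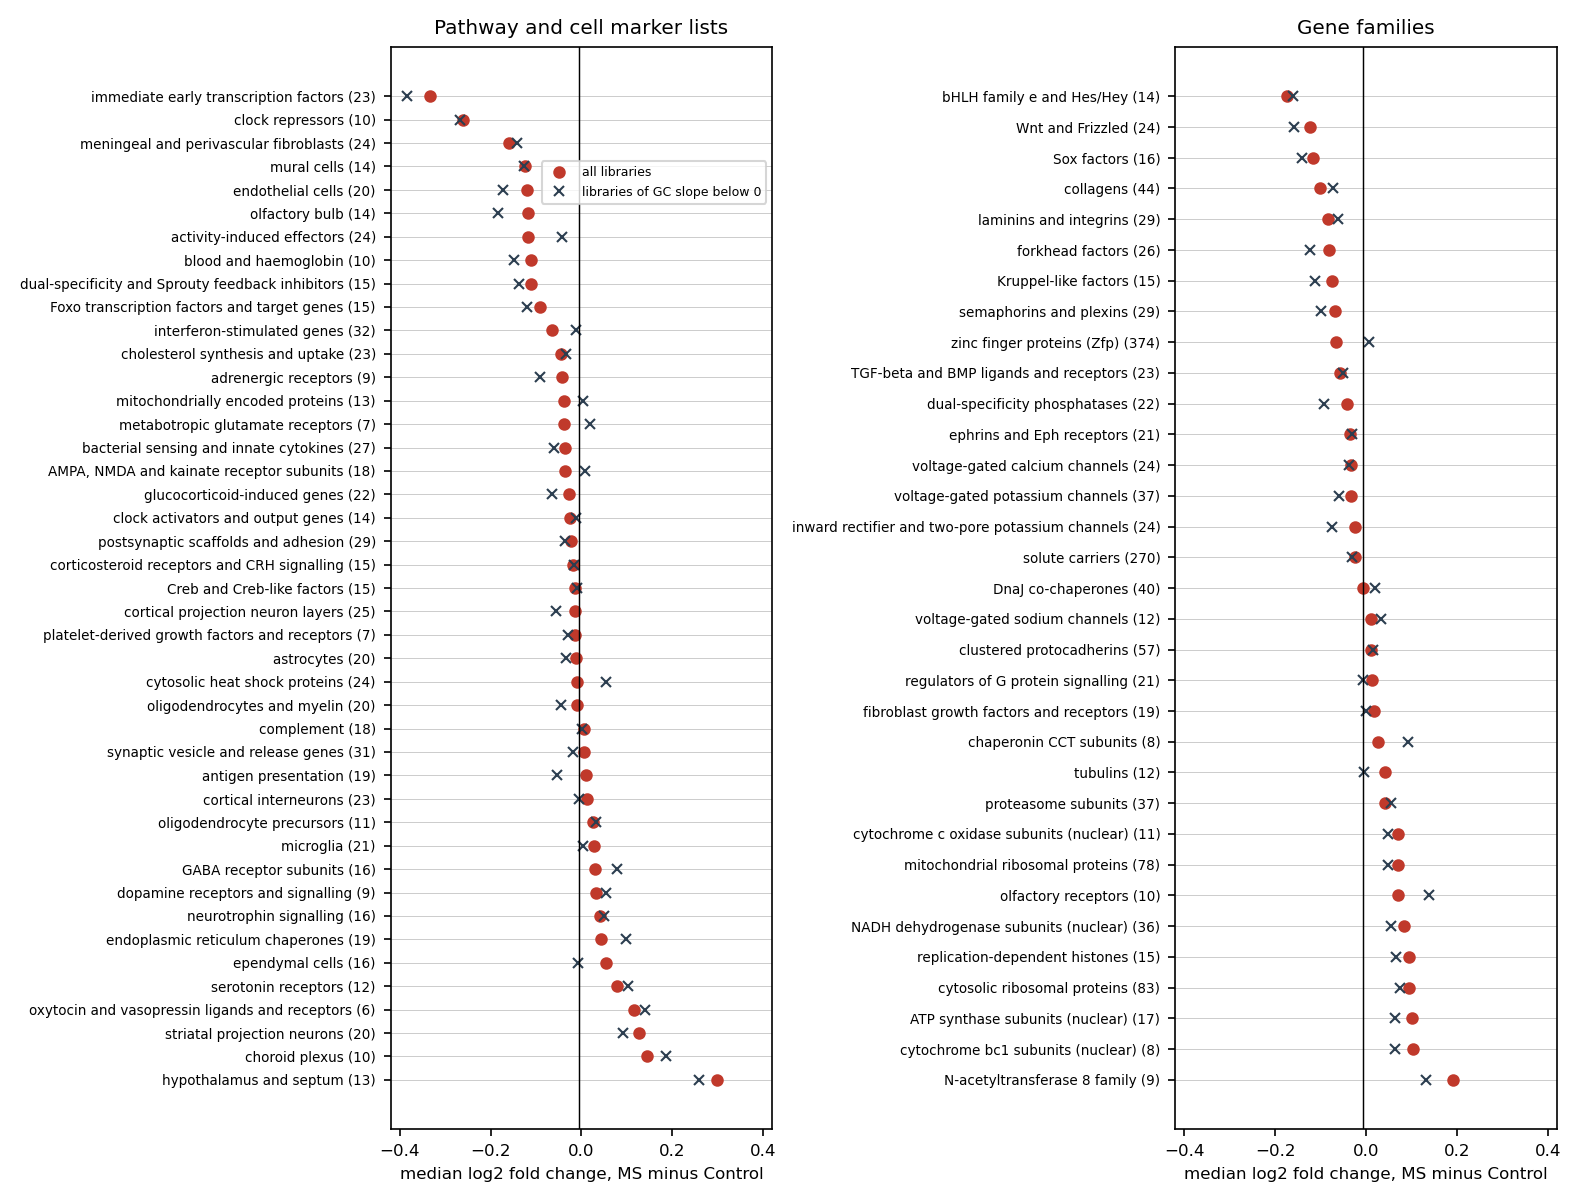
Median log2 fold change, MS minus Control, of each pathway or marker list (left) and gene family (right), with the number of genes tested in brackets; circles are from all libraries, crosses from the libraries of GC slope below 0, and the line marks the median of all genes tested. The immediate early transcription factors, at −0.334, and the clock repressors, at −0.26, have the lowest medians, and the hypothalamus and septum list, at 0.298, has the highest.

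In the 17 libraries of GC slope below 0, which hold 5 MS and all 6 Control libraries, 89 genes passed (0.484%), 18 higher in MS (0.0979%) and 71 lower (0.386%), and the 6 genes above were among them. The clock repressors Nr1d1 (log2 fold change −0.52, adjusted p = 0.000434), Per1 (−0.57, adjusted p = 0.000513) and Cry2 (−0.19, adjusted p = 0.0133) passed there beside Bhlhe40, and so did 5 immediate early transcription factors: Egr4 (−0.70, adjusted p = 0.0103), Klf10 (−0.64, adjusted p = 0.0127), Nr4a3 (−0.63, adjusted p = 0.0152), Egr1 (−0.52, adjusted p = 0.0155) and Srf (−0.23, adjusted p = 0.0228). Of the activity-induced effectors Plk3 (−0.59), Ier5 (−0.44) and Per1 passed.

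Other genes lower in MS in those libraries were Ephb3, a receptor of ephrin B ligands (log2 fold change −0.44, adjusted p = 0.00318), Efnb1, such a ligand (−0.45, adjusted p = 0.0149), Slc16a1, a monocarboxylate transporter that carries lactate (−0.35, adjusted p = 0.0133), Irs2 (−0.39, adjusted p = 0.0179) and Dnajb5, a chaperone partner (−0.44, adjusted p = 0.0206). Creb5 (0.80, adjusted p = 0.0453), Rasgef1b (0.40, adjusted p = 0.0282), Ppp1r10 (0.26, adjusted p = 0.0307), Snhg1 (0.48, adjusted p = 0.0376) and Magef1 (0.40, adjusted p = 0.0441) were among the 18 that rose.

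GC content moved with these calls. The 71 genes that fell had a median GC content of 56.5% and the 16 of those that rose and had a value 42.8%, against 49.8% over the 17030 genes with a value. Among those libraries the slope and the rearing group do not overlap within the unsupplemented mice, and with the slope added as a covariate no gene passed. Of the genes above, Bhlhe40 came nearest to passing, at −0.82 (adjusted p = 0.0536), followed by Per1, at −0.62 (adjusted p = 0.116). The signs of the remaining 5 genes that passed in all libraries did not turn: Foxo6 was at −0.58, Banp at −0.50, Pdgfb at −0.49, 4930445K14Rik at 0.53 and Lrch4 at 2.59, with adjusted p-values from 0.248 to 0.671. Nr4a3 was at −0.38 (adjusted p = 0.761). In those 17 libraries GC slope and rearing cannot be told apart. Over all 24 libraries the covariate left 62 genes (0.337%), 47 of which are among the 89, but the overlap of slope between MS and Control there rests on MS replicate 3 alone.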

How the data were processed

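Gene expression was measured by RNA-seq of prefrontal cortex. The labels' protocols name ISOGEN II for RNA extraction and a strand-specific mRNA kit for the libraries. Tools listed in the submitters' processing notes are DESeq2, StringTie 2.1.3b, HISAT2 2.1.0, Trimmomatic 0.38 and FastQC 0.11.7, with mm10 as the build; the sources used here do not give what each was used for, how reads were counted or whether counting used strand. The authors deposited whole-number read counts per gene for 45777 genes, left unnormalized per the file headers, with FPKM and TPM values beside them. The deposited TPM values served the marker check and 1 alternative, and the deposited FPKM values were not used.

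Genes with few counts were removed with filterByExpr (minimum count 10, minimum total 15), which left 18380 genes. All 24 libraries entered the same fit of edgeR 4.0.16 (R 4.3.3): TMM scaling, 1 coefficient per group, quasi-likelihood F test, 2-sided, Benjamini-Hochberg adjustment over all genes tested, adjusted p under 0.05 as a call. The fit was tested on simulated data. CPM are counts scaled by TMM-adjusted library size; log2 CPM used a prior count of 2. SE are standard errors of the log2 fold change, n = 6 libraries per group. Counts in single digits are imprecise at this depth. Gene coordinates, names, promoters and GC content came from reference annotation of GRCm38; 99.77% of gene identifiers matched the RefSeq table and 92.7% of genes had a GC value. No pair of libraries differed by so little as sampling noise (lowest chi-square for a pair, per gene, 5.02).

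Named were all genes that passed, the 15 of smallest p in each direction, up to 6 members of each list or family by smallest p, and all members of the immediate early and clock lists; genes in the paragraphs on libraries of GC slope below 0, and Foxo1, Foxo3, Foxo4, Nat8f1, Nat8f2 and Nat8l, were chosen after their values were seen. The genes, lists and families were chosen with earlier results of these data known. Some genes that this rule names are not reported here. Lists are described by counts and medians, without a test. Alternatives were DESeq2 1.42.0, RLE scaling, no filter, the 12 libraries alone, limma 3.58.1 on log2(TPM + 0.5), a replicate block, a GC slope covariate, libraries of GC slope below 0, and leaving out each library. The 11 MS and Control libraries of slope below 0, leaving out MS replicates 1 and 4 together, and the slope as a covariate in the libraries of slope below 0 were chosen after seeing the data. So was the test of GC slope without MS replicate 3.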

Additional observations from a re-analysis of the deposited data

Results flagged for a closer look

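The gap of the highest or lowest library to the nearest other, as a share of the range of its group, was large in 20 of 194 groups of 6 libraries (10.3%), over the genes examined and the library measures; chance flags about 1 in 20 groups (5%).

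MS replicate 3 stood apart in GC slope, at 0.266 against −0.202 to −0.152 in the other MS libraries. The same library stood apart in Ttr (54.8 CPM against 0 to 1.16), Nat8l (522 CPM against 359 to 395), Cry2 (141 CPM against 130 to 132), Nr1d2 (83.1 CPM against 115 to 132) and Ephb3 (23.8 CPM against 16.3 to 18.3). MS replicate 1 did so in Oxt (6.94 CPM against 0 to 1.61) and Ngp (0.432 CPM against 0.148 to 0.205).

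Control replicate 1 stood apart in 3 immediate early genes, though not in 1 direction: Npas4 was high (58.1 CPM against 21.9 to 33.1), while Nr4a2 (27.5 CPM against 36.5 to 39.9) and Egr2 (13.5 CPM against 16.8 to 18.6) were low. It was also apart in Creb5 (1.46 CPM against 2.65 to 3.18) and Oxt (0.952 CPM against 0 to 0.286). Control replicate 5 was apart in Narf (65.4 CPM against 55.2 to 58.9), Per3 (40.2 CPM against 43.3 to 44.1) and Inhbb, an inhibin subunit gene (9.02 CPM against 6.72 to 7.18). Control replicate 4 was apart in Nat8f7 (1.47 CPM against 1.13 to 1.24) and Plin4 (4.51 CPM against 2.34 to 2.97), Control replicate 2 in Bhlhe41 (42.3 CPM against 39.5 to 40.5) and Control replicate 3 in Nat8f6 (0.3 CPM against 0.711 to 0.885).

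The effect of rearing differed between supplemented and unsupplemented mice for Bhlhe40, with an interaction of 0.89 on the log2 scale (adjusted p = 0.0379), and for Banp, with 0.84 (adjusted p = 0.0152).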

How the results depend on the processing

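The number of genes that passed in MS against Control depended on the processing, while the log2 fold changes of the 6 genes kept their sign in every alternative run. It was 6 (2 higher, 4 lower) as reported, 22 (7 higher, 15 lower) with DESeq2, 13 (11 lower) with the 12 libraries alone, 5 with RLE scaling and 5 without a filter, 3 (0 higher) with limma on TPM, 62 (12 higher, 50 lower) with the GC slope as a covariate, and 89 (18 higher, 71 lower) in the 17 libraries of GC slope below 0. Leaving out 1 library gave 2 to 8 genes, 1 to 4 higher and 1 to 5 lower; 2 genes were left without Control replicate 3, 5 or 6 or MS replicate 4 or 5. Chosen after seeing the data, the 11 MS and Control libraries of slope below 0 gave 85 (13 higher, 72 lower), leaving out MS replicates 1 and 4 gave 4 (1 lower), and the slope as a covariate in the 17 libraries gave 0 (0 higher, 0 lower). DESeq2 gave 152 genes for MS_EC12 against Control_EC12, where 48 are reported, and 18 for the interaction, where 2 are. The causes of these moves were not tested.

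Replicate numbers did not clearly pair the samples: the deviations of same-numbered MS and Control libraries correlated at −0.0653 to 0.283. The value of 0.283, for replicate 1, was the highest of any MS and Control pair, and MS replicate 5 correlated best with Control replicate 5 (0.0863). MS replicates 2, 3, 4 and 6 correlated best with a Control library of another number. Pairing among the supplemented libraries was not checked, so a block by replicate number remains possible. With a replicate block 10 genes passed (8 lower), 71 with the GC slope as well (13 higher, 58 lower), 232 for MS_EC12 against Control_EC12 and 9 for the interaction; not every library correlated best with its own number.

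Among genes named above, signs turned for small differences. Cry1 was at −0.01 in the libraries of slope below 0, at −0.02 in the 11 of them from MS and Control, at −0.06 with the covariate there, and at −0.03 to 0.05 without 1 library. Nat8l was at −0.01 with the block and with limma, at −0.02 with the covariate with or without the block, at −0.08 in both sets of slope below 0, and at −0.08 to 0.04 without 1 library. Oxt was at −0.75 without MS replicates 1 and 4. With the covariate in the 17 libraries Nr4a2 was at 0.04, Per3 at −0.05, Nat8f1 at −0.01, Nat8f4 at −0.08 and Ttr at −0.69.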
